A study of Mus musculus with 6 samples.

Results

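The genes described here are lysosomal. They are subunits of the vacuolar proton pump (V-ATPase), cathepsins, other soluble hydrolases and their cofactors, proteins of the lysosomal membrane, and the transcription factors Tfeb and Tfe3. A list of 41 gene symbols fixed the members, and a member was measured where a probe set of the array was annotated to its symbol alone. Of the 41 members 39 were measured, among 22180 genes in all, and a gene with several such probe sets was represented by the one with the highest mean over the 6 arrays. Atp6v0c, a subunit of the proton-carrying ring, and Glb1, the lysosomal beta-galactosidase, had no probe set annotated to their symbol alone and were not analysed here.

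The cells were Raw 264.7, an established mouse line that the labels call monocytes and that is widely used as a macrophage and osteoclast precursor model. All arrays shared the same handling: growth with 10% serum, starvation, then medium with 2% serum. In the treated group the medium also held 50 ng/ml IL-33, an alarm cytokine related to IL-1, and the other group is labelled PBS. Each group held 3 arrays of total RNA, and the labels give neither the time of treatment nor whether each sample was its own culture. The p-values therefore rest on a spread that may be technical. Groups follow the sample titles. The hybridisation names in the sample descriptions oppose the titles: arrays titled PBS carry IL in that name and arrays titled IL-33 carry P. Every direction below would turn if the titles were exchanged.

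As background, the V-ATPase pumps protons into lysosomes. Its membrane sector, V0, carries the protons and its cytosolic sector, V1, splits ATP to drive them. The acid activates cathepsins and other hydrolases that break down proteins, glycans and lipids, and membrane proteins such as Lamp1 and Npc1 protect the compartment and export its products. TFEB and TFE3 are transcription factors that bind promoters of many lysosomal genes at sites built around the letters CACGTG. Macrophages hold many lysosomes for digesting what they take up, and osteoclasts send the same pump and cathepsin K to their surface to resorb bone.

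Values are the deposited log2 expression values. Differences are the mean of the IL-33 arrays minus the mean of the PBS arrays on the log2 scale, and a gene was said to pass where limma's p, adjusted by Benjamini-Hochberg over all 22180 genes, was under 0.05. Array medians lay between 5.31 and 5.36, and arrays correlated at 0.997 to 0.998 across genes. Of all genes, 0.591% passed. Of the 12 macrophage markers examined, Ptprc, Itgam, Adgre1, Csf1r, Cd14, Lyz2 and Tyrobp had values from 10.73 to 12.92 and Fcgr1 from 11.16 to 11.82. Spi1 lay between 9.53 and 9.60, and the dim ones were Cd86 at 6.36 to 6.92, Fcgr3 at 6.40 to 6.80 and Mertk at 5.02 to 5.40. The table has no detection calls, so no gene was called absent. Member means over the 6 arrays ran from 5.35 for Tfeb to 13.13 for Ctsb, close to the array maxima of 13.62 to 13.66, and 37 of the 39 members had a mean at or above the 75th percentile of all gene means, 8.54.

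A single member, Gpnmb, passed, and it fell. Its log2 difference was -0.45, and 1 lower and 0 higher members of 39 compare with 0.316% and 0.275% of all genes. No V-ATPase subunit passed. Their differences were below 0 in 14 of 15 subunits, with a median of -0.13, and in 13 with the probe sets of a gene averaged. The cathepsins had a median of 0.0071, and their differences lay on both sides of 0. Over all 39 members the median was -0.041, against -0.0051 over all genes, and 27 members had a difference below 0, against 52.1% of all genes. The ranges of both groups lay apart in 24 members, 19 of them lower and 5 higher in the IL-33 arrays. Over all genes the groups did not overlap in 20.3%, with 10.1% lower and 10.3% higher. Members are brighter than most genes, and among the 1378 genes at or above the lowest mean of any V-ATPase member other than the dim Atp6v1f, a limit set after the values were seen, the groups did not overlap in 42.5%, with 21.3% lower and 21.1% higher, and 46.9% had a difference below 0. At an unadjusted p under 0.05 (limma), 8 members were lower and 1 was higher, against 6.74% and 6.42% of all genes, or 13.2% together.

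**Figure D1:**
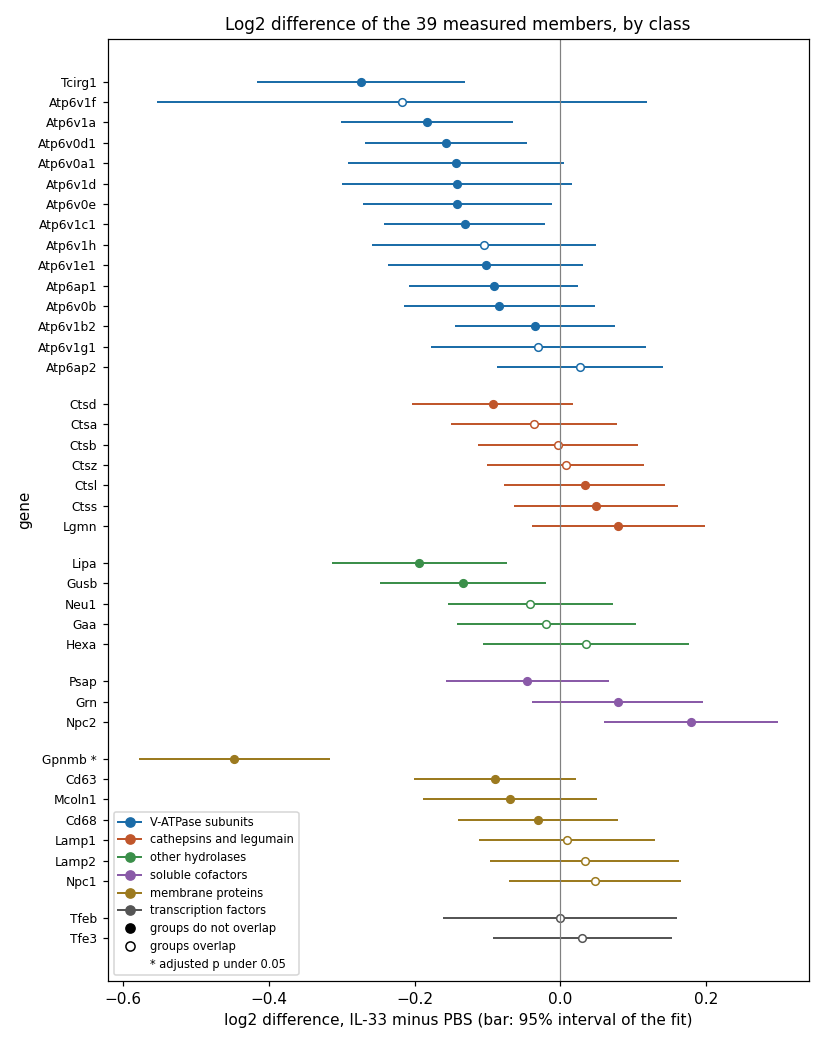
Log2 difference (IL-33 minus PBS, horizontal axis) of each of the 39 measured members (vertical axis), grouped by class; bars are the 95% intervals of the limma fit, filled points have groups that do not overlap, and an asterisk marks an adjusted p under 0.05. Gpnmb at -0.45 carries the asterisk, and 14 of the 15 V-ATPase points lie left of 0.

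How many members passed depended on the settings of the fit. The standard error of the difference had a median of 0.049 over the members and 0.073 over all genes. With a prior variance trended on intensity 9 members passed lower and 1 higher (limma), against 2.14% and 2.40% of all genes, or 4.54% together. The 9 were Gpnmb, Tcirg1, Atp6v0d1, Atp6v0e, Atp6v1a, Atp6v1c1, Ctsd, Gusb and Lipa, and the higher one was Npc2. With the fit limited to the brighter genes, those whose mean reached the median of gene means, 5 members passed lower and 1 higher, against 3.24% and 3.62% of the genes so fitted, or 6.85% together. That setting changed both the number of genes adjusted over and the prior variance. No member passed when any 1 of the 6 arrays was left out: the smallest adjusted p of a member then ran from 0.0545 without IL-33 replicate 1 to 0.146 without PBS replicate 1 (limma).

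The V0 sector of the pump was measured through 5 subunits, and in all 5 the groups did not overlap, each lower, against 10.1% of all genes and 21.3% of the 1378 similarly bright genes. Tcirg1 (Entrez gene 27060), the isoform of the large membrane subunit a that osteoclasts need for bone resorption, had log2 values of 12.11, 12.08 and 12.06 in the PBS arrays and 11.87, 11.84 and 11.71 in the IL-33 arrays. Every IL-33 value lay below every PBS value, with the lowest in IL-33 replicate 3. The means were 12.08 ± 0.024 and 11.81 ± 0.087 (SD, n = 3 each), a level 1.21-fold lower with a log2 difference of -0.27 ± 0.060 (SE, adjusted p = 0.118 by limma). Atp6v0a1, the widely expressed isoform of the same subunit, had 10.76, 10.84 and 10.71 against 10.63, 10.69 and 10.55, again without overlap, but with a narrow gap between 10.71 and 10.69. Its difference was -0.14, with a 95% interval from -0.29 to 0.0030.

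Atp6v0d1, the subunit that couples the membrane ring to the central stalk, had 11.97, 11.99 and 11.95 in the PBS arrays and 11.82, 11.80 and 11.83 in the IL-33 arrays. The SDs of 0.021 and 0.016 (n = 3 each) were small beside its difference of -0.16, and limma's adjusted p was 0.216. Atp6v0e, a small membrane subunit, had 11.92, 11.90 and 11.95 against 11.86, 11.75 and 11.74, a difference of -0.14 (adjusted p = 0.332, limma). The remaining V0 member, the ring subunit Atp6v0b, had the smallest difference of the sector, at -0.084.

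The V1 sector was measured through all 8 subunits listed, each with a difference below 0, and 5 were lower without overlap, beside the same 10.1% and 21.3%. The median was -0.12, against -0.14 for V0. Atp6v1a, the catalytic subunit that splits ATP, had 12.07, 11.98 and 12.04 in the PBS arrays and 11.87, 11.85 and 11.83 in the IL-33 arrays, without overlap. Its difference of -0.18 ± 0.049 (SE) was the largest in V1 among subunits whose groups did not overlap, 1.14-fold lower (adjusted p = 0.187, limma). Atp6v1c1, a stator subunit that takes part in assembling the sectors, had 11.43, 11.41 and 11.40 against 11.27, 11.30 and 11.28, a difference of -0.13 (adjusted p = 0.290, limma). The other V1 subunits without overlap were Atp6v1d at -0.14, Atp6v1e1 at -0.10 and the ATP-binding partner of the catalytic subunit, Atp6v1b2, at -0.034. The groups overlapped in Atp6v1h at -0.11, Atp6v1g1 at -0.030 and Atp6v1f at -0.22. The other, dimmer probe sets of Atp6v1g1 gave 0.038 and 0.0049, so its direction depended on the probe set. Atp6v1f was dim, with a mean of 6.27 ± 0.24 in the PBS arrays and 6.05 ± 0.19 in the IL-33 arrays (SD, n = 3 each), and its 95% interval from -0.55 to 0.12 was the widest of all members.

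Atp6ap1, an accessory subunit used in assembly, had a difference of -0.092 without overlap. Atp6ap2, known as the prorenin receptor, was the single member of the class above 0. It had 11.76, 11.78 and 11.76 in the PBS arrays and 11.77, 11.79 and 11.83 in the IL-33 arrays, overlapping groups with a difference of 0.026 and a 95% interval from -0.086 to 0.14.

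The V-ATPase values were also summarised by array. For each array the deviation of each gene from its mean over the 6 arrays was averaged over the 15 subunits. This gave 0.11, 0.042 and 0.034 in PBS replicates 1, 2 and 3 and -0.020, -0.078 and -0.084 in IL-33 replicates 1, 2 and 3 (log2). The groups did not overlap, and in both of them replicate 1 was highest and replicate 3 lowest. PBS replicate 1 stood highest of all: 8 of the 15 subunits had their highest value there. Without that array the class median was -0.085 in place of -0.13, and 13 of 15 differences were below 0.

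**Figure D2:**
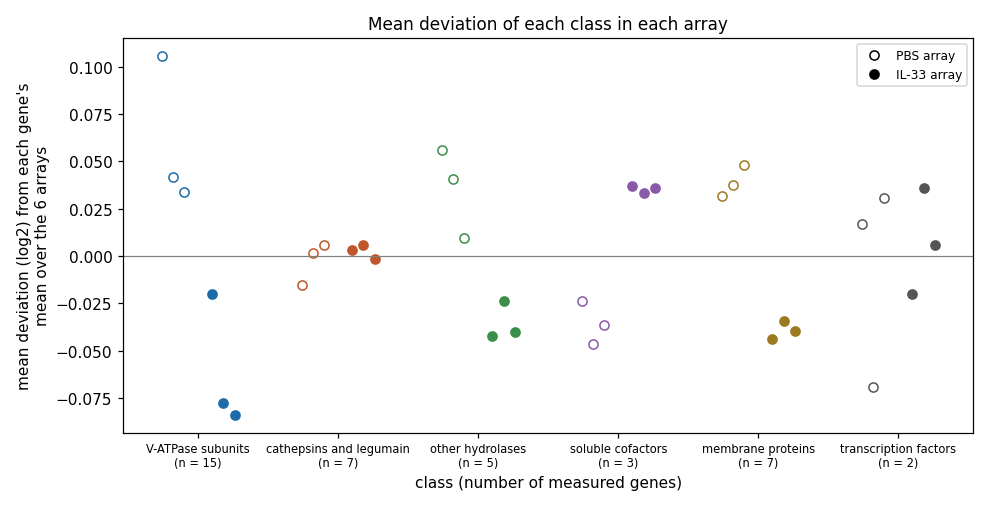
Mean over the genes of a class of the deviation from each gene's mean over the 6 arrays (log2, vertical axis), for each class (horizontal axis, with the number of measured genes); open points are PBS arrays and filled points IL-33 arrays. The V-ATPase points run from 0.11 in PBS replicate 1 to -0.084 in IL-33 replicate 3, while the cathepsin points of both groups lie between -0.015 and 0.0060.

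Markers of osteoclasts, the cells that use this pump at their surface, were lower beside it. All 10 had a difference below 0, against 52.1% of all genes. Of them 3 fell, Atp6v0d2, Dcstamp and Mmp9, where 0.316% of all genes passed lower. The groups overlapped in 3, Calcr, Ocstamp and Nfatc1, the last with a difference of -0.015. The log2 of the summed level of all 10, among which Dcstamp and Mmp9 were the brightest, lay between 12.13 and 12.22 in the PBS arrays. In the IL-33 arrays it lay between 11.59 and 11.71. Atp6v0d2, the isoform of subunit d that osteoclasts and some macrophages use, had 8.72, 8.60 and 8.50 in the PBS arrays and 7.77, 7.57 and 7.39 in the IL-33 arrays. It fell 2.04-fold (adjusted p = 0.0160, limma). Its adjusted p was 0.0202 without IL-33 replicate 1 and from 0.0674 to 0.0889 without each of the other arrays in turn. Bulk RNA cannot tell fewer cells of an osteoclast-like kind from less RNA per cell, and the part of either in the values of the pump, Gpnmb, Clcn7, Ctsk and Acp5 was not tested. Of the 12 macrophage markers Fcgr1 rose by 0.49 (log2, adjusted p = 0.0448, limma), 6 differences were below 0 with Adgre1 the lowest at -0.29 without overlap, and the log2 of the summed level lay between 14.87 and 14.90 in the PBS arrays and between 14.89 and 14.94 in the IL-33 arrays. Among markers of other cell types, the lymphocyte marker Ighm rose by 0.65 and the mast cell marker Hdc by 0.77 (log2). The other 8 lymphocyte and 10 mast cell and basophil markers did not pass. Differences were below 0 in 6 of 9 lymphocyte and 5 of 11 mast cell and basophil markers, with medians of -0.021 and 0.014. Ighm was represented by the brightest of its 7 probe sets. It lay between 10.67 and 10.92 in the PBS arrays and between 11.41 and 11.55 in the IL-33 arrays. Cd3e, Cd79a and Ms4a1 of the same list lay between 3.46 and 5.14. No fibroblast, endothelial or epithelial marker passed. All arrays came from the same established line and not from a mixed tissue, so a risen marker is not a count of such cells. The presence of such cells was not tested. The other V-ATPase subunits outside the members, 8 genes that are mostly isoforms of other tissues, did not pass, and the median of all 9 with Atp6v0d2 was 0.0069. Of 10 assembly factors of the pump none passed, with a median of 0.056. The one with the smallest p was Wdr7, a partner of the pump, at -0.25 (adjusted p = 0.115, limma).

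Promoter letters were read for the members, since TFEB and TFE3 bind around CACGTG. RefSeq promoter windows (GRCm38.p6, 250 bases before to 50 after an annotated start) were found for 35 of the 41 members. CACGTG, which reads the same on both strands, lay in a window of 12 of 35 members, the unmeasured Glb1 among them, or 34.3%, against 8.09% of the 27025 genes in the table. TCACGTG, searched on both strands and holding CACGTG within it, lay in 11 members, or 31.4%, against 4.29% of genes. TCATGTG, the letters of a related site, lay in 4 members, or 11.4%, against 4.31% of genes. A match is a run of letters and not a measured binding site.

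Of 12 V-ATPase members with a window 4 held CACGTG. Their stretches are shown with CACGTG in capitals, 5′ to 3′ on the strand of the gene, because these 4 have groups that do not overlap, all lower. They lie at chr4:117887333-117887377 (Atp6v0b, minus strand), chr8:105566050-105566079 (Atp6v0d1, minus strand), chr17:26676387-26676416 (Atp6v0e, plus strand) and chr16:44139373-44139402 (Atp6v1a, minus strand).
Atp6v0b: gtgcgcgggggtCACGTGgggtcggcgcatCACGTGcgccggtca
Atp6v0d1: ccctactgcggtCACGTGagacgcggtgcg
Atp6v0e: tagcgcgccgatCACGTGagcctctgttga
Atp6v1a: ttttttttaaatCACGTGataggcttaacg
Counted from 0 at the first base of the annotated transcript, the letters begin at -36 and -18 in Atp6v0b, at -3 in Atp6v0d1, at 3 in Atp6v0e and at -131 in Atp6v1a. The median difference of these 4 was -0.15. It was -0.14 for the 7 measured V-ATPase members whose windows lack the letters, Tcirg1 among them. Lower without overlap were all 4 with the letters and 5 of the 7 without. The share was 10.1% of all genes and 21.3% of the 1378 similarly bright genes.

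Cathepsins and legumain, the main proteases of the lysosome, did not pass, and the differences of the 7 genes lay between -0.093 and 0.079. Ctsb (Entrez gene 13030), a cysteine protease and the brightest member, had 13.12, 13.14 and 13.13 in the PBS arrays and 13.13, 13.11 and 13.14 in the IL-33 arrays. The groups overlapped, and the difference of -0.0034 had a 95% interval from -0.11 to 0.10. Ctsd, the main aspartic protease of lysosomes, was the single cathepsin lower without overlap, with 13.03, 13.07 and 13.04 against 12.95, 12.97 and 12.95. Its difference was -0.093 (adjusted p = 0.448, limma), which became 0.0263 with the variance trended on intensity.

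Ctsl, Ctss and Lgmn were higher in every IL-33 array than in any PBS array. Ctsl, a cysteine protease of broad use, had 12.54, 12.57 and 12.52 against 12.59, 12.57 and 12.57, groups that nearly touch, with a difference of 0.033. Ctss, the protease that trims the invariant chain of MHC class II molecules, had 11.38, 11.42 and 11.43 against 11.44, 11.48 and 11.45, a difference of 0.049. Lgmn, which cuts after asparagine and matures several cathepsins, had 11.35, 11.39 and 11.44 against 11.48, 11.45 and 11.49, a difference of 0.079. Adjusted p for these 3 lay between 0.557 and 0.818 (limma). Of the remaining proteases, Ctsa, a carboxypeptidase that also shields neuraminidase and beta-galactosidase, had -0.036, and the carboxypeptidase Ctsz had 0.0071, both with overlapping groups.

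CACGTG lay in the windows of 4 of 6 members of this class, Ctsa, Ctsd, Ctsl and Lgmn, whose median difference was -0.0017. The stretches are shown to set them beside those of the pump, at chr2:164833755-164833784 (Ctsa, plus strand), chr7:142387908-142387937 (Ctsd, minus strand), chr13:64370739-64370768 (Ctsl, minus strand) and chr12:102439124-102439153 (Lgmn, minus strand).
Ctsa: aactgtCACGTGatgcagatgctCACGTGa
Ctsd: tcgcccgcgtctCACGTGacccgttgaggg
Ctsl: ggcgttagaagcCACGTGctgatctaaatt
Lgmn: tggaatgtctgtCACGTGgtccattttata
The same 6 letters stood before Ctsd at -0.093 and Lgmn at 0.079, and before the pump genes Atp6v1a at -0.18 and Atp6v0b at -0.084. None of these genes passed, and a part of the letters in their differences was not tested.

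Of the proteases outside the members 13 were measured and none passed, with a median of 0.025. Ctsk, the collagen-cutting cathepsin of osteoclasts, had 8.24, 8.20 and 8.16 in the PBS arrays and 7.89, 7.59 and 7.80 in the IL-33 arrays. The groups did not overlap, the level was 1.36-fold lower, and the adjusted p was 0.0864 (limma).

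The 5 other hydrolases measured had a median of -0.041, and none passed. Lipa (Entrez gene 16889), the acid lipase that frees cholesterol and fatty acids from lipoproteins taken up, had 12.20, 12.24 and 12.14 in the PBS arrays and 11.98, 12.01 and 12.01 in the IL-33 arrays. The gap between the groups, from 12.14 to 12.01, was wider than the SD of either group, 0.049 and 0.015 (n = 3 each). The level was 1.14-fold lower, with a difference of -0.19 ± 0.050 (SE, adjusted p = 0.172 by limma). Gusb, the beta-glucuronidase of glycosaminoglycan breakdown, had 11.26, 11.23 and 11.22 against 11.13, 11.07 and 11.10, also without overlap, with a difference of -0.13 (adjusted p = 0.2997, limma). Hexa, a subunit of the hexosaminidase that degrades gangliosides, had 11.75, 11.75 and 11.70 against 11.68, 11.83 and 11.80. Its IL-33 values spanned its PBS values, and the difference was 0.035. The sialidase Neu1 at -0.041 and the glycogen-degrading Gaa at -0.020 also had overlapping groups.

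Of 28 hydrolases and activators outside the members none passed, with a median of 0.018. Acp5, the tartrate-resistant acid phosphatase that marks osteoclasts, had 7.48, 7.42 and 7.51 in the PBS arrays and 7.19, 7.16 and 7.09 in the IL-33 arrays. The groups did not overlap, and the difference was -0.32 (adjusted p = 0.0603, limma).

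None of the 3 soluble cofactors passed. Npc2 and Grn had differences above 0 and Psap one below 0, with a median of 0.079. Npc2 (Entrez gene 67963), which carries cholesterol inside the lysosome and hands it to the membrane protein Npc1, had 12.01, 11.98 and 11.92 in the PBS arrays and 12.13, 12.16 and 12.15 in the IL-33 arrays. Every IL-33 value lay above every PBS value. Its difference of 0.18 ± 0.050 (SE) was the highest of the 39 members, 1.13-fold (adjusted p = 0.194, limma). Psap, the precursor of the saposins that present lipids to hydrolases, had 12.48, 12.47 and 12.48 against 12.44, 12.40 and 12.45, lower without overlap by -0.045. Grn, which encodes progranulin, had a difference of 0.079 without overlap. The counts of members without overlap depended on the scaling of the arrays. Higher ones numbered 5 as deposited, 2 after a further quantile normalization and 3 after centring on the 75th percentile. Lower ones numbered 19, 15 and 16 in the same order, and the V-ATPase subunits among them 11, 9 and 10.

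Gpnmb was the member that fell among the 7 membrane proteins. It encodes a glycoprotein of late endosomes and melanosomes that lipid-laden macrophages and osteoclasts express. Gpnmb (Entrez gene 93695) had log2 values of 12.77, 12.70 and 12.79 in the PBS arrays and 12.36, 12.31 and 12.25 in the IL-33 arrays. The groups lay far apart, with the lowest PBS value at 12.70 and the highest IL-33 value at 12.36. The means were 12.75 ± 0.050 and 12.31 ± 0.053 (SD, n = 3 each), a 1.36-fold fall with a log2 difference of -0.45 ± 0.055 (SE) and a 95% interval from -0.58 to -0.32 (adjusted p = 0.0268, limma). Without any 1 array its difference lay between -0.48 and -0.42 while its adjusted p rose to between 0.0545 and 0.146. The call was thus lost without each of the 6 arrays.

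**Figure D3:**
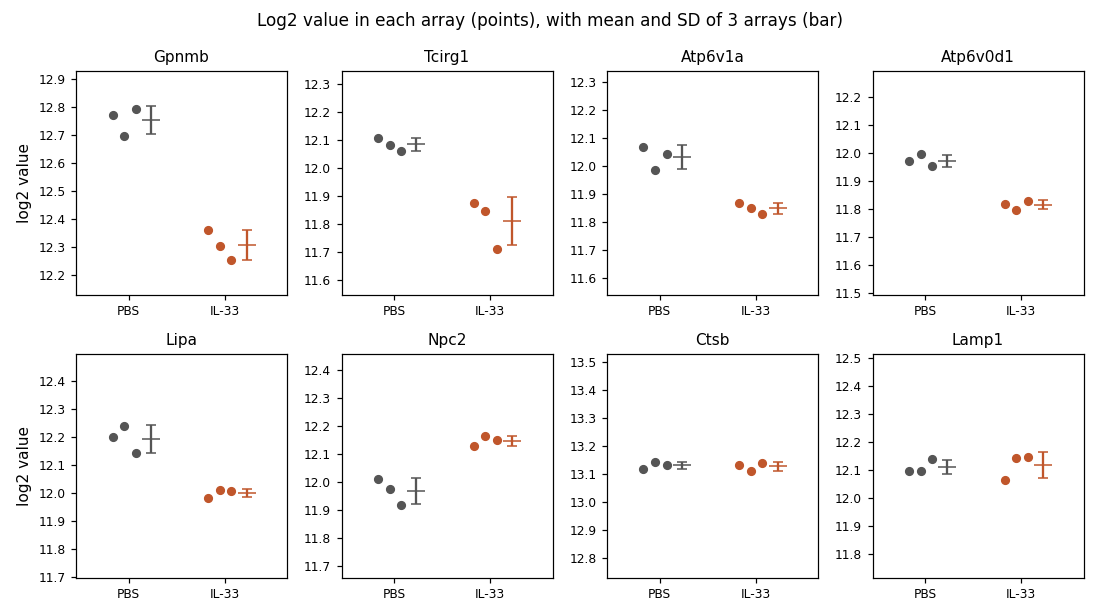
Log2 value (vertical axis, each panel spanning the same height) of 8 members in the 3 PBS and 3 IL-33 arrays; points are arrays and the bar beside them is the mean with its SD (n = 3). Gpnmb, Tcirg1, Atp6v1a, Atp6v0d1 and Lipa lie lower in every IL-33 array, Npc2 lies higher in every IL-33 array, and the groups overlap for Ctsb and Lamp1.

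The promoter window of Gpnmb held neither CACGTG nor TCATGTG. The 250 bases before its start (chr6:49036268-49036517, plus strand) are printed because it is the member that passed, with the letters CANNTG, the general form of such sites, in capitals. CANNTG occurs in a window of 75% of all genes.
Gpnmb: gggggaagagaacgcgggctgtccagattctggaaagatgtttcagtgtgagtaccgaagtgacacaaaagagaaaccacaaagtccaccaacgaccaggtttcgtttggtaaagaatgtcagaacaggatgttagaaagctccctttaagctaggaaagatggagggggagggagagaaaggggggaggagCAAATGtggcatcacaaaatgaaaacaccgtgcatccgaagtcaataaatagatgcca
The letters stand once in this stretch, at -58.

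The other 6 membrane proteins had differences of at most 0.090 in size. Lamp1, a widely used lysosome marker that lines the inside of the membrane, had 12.09, 12.09 and 12.14 in the PBS arrays and 12.06, 12.14 and 12.15 in the IL-33 arrays, overlapping groups with a difference of 0.0090 and a 95% interval from -0.11 to 0.13. Mcoln1, the lysosomal calcium channel that acts upstream of TFEB, had 11.17, 11.16 and 11.17 against 11.16, 11.06 and 11.08, a difference of -0.069 whose groups did not overlap, with IL-33 replicate 1 just below the PBS values. Npc1, the cholesterol exporter, had 10.66, 10.75 and 10.72 against 10.77, 10.75 and 10.76, a difference of 0.047. Its other, dimmer probe set gave -0.15, so the direction of Npc1 was not the same for both. The tetraspanin Cd63 at -0.090 and the macrophage glycoprotein Cd68 at -0.031 were lower without overlap, and Lamp2, which takes part in chaperone-mediated autophagy, had 0.033. Averaged as above, the class lay between 0.032 and 0.048 in PBS arrays and between -0.044 and -0.034 in IL-33 arrays. Without Gpnmb, a choice made after the values were seen, the same average lay between -0.0035 and 0.016 in PBS arrays and between -0.023 and -1.36e-05 in IL-33 arrays. The groups then overlapped, since PBS replicate 1 lay below IL-33 replicates 2 and 3.

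CACGTG stood 4 times before Lamp1 and 2 times before Mcoln1, in the stretches chr8:13159088-13159160 and chr8:3500436-3500488 (both plus strand), shown because Lamp1 holds more of them than any other stretch printed here and Mcoln1 is the other membrane protein with them.
Lamp1: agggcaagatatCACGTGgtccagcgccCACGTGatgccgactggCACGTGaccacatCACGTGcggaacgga
Mcoln1: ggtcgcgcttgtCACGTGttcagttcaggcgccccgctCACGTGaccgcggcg
The letters begin at -61 for the first and at -15 for the last in Lamp1, and at -71 and -45 in Mcoln1. Over all 11 measured members with CACGTG the median difference was -0.069, with 8 below 0. Over the 22 whose windows lack it the median was -0.043, with 14 below 0.

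Of 29 other membrane proteins none rose, beside 0.275% of all genes, and 1 fell, beside 0.316%. The one that fell was Clcn7, the chloride and proton exchanger of lysosomes that osteoclasts need. It had 10.40, 10.24 and 10.46 in the PBS arrays and 9.85, 9.81 and 9.78 in the IL-33 arrays. The level was 1.47-fold lower, with a difference of -0.55 (adjusted p = 0.0263, limma), which was 0.0394 without PBS replicate 2 and from 0.0654 to 0.148 without each of the other arrays in turn. The median of the list was -0.046, and 20 of 29 differences were below 0, against 52.1% of all genes.

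The transcription factors Tfeb and Tfe3, which drive lysosomal genes when they enter the nucleus, did not pass. Tfeb had 5.34, 5.26 and 5.45 in the PBS arrays and 5.27, 5.40 and 5.37 in the IL-33 arrays, and the groups overlapped. Its difference of -0.0010 had a 95% interval from -0.16 to 0.16. Its probe set was dim, near the array medians, and its sign turned under both scaling alternatives. Tfe3 had 10.38, 10.29 and 10.30 against 10.37, 10.36 and 10.33, also overlapping, a difference of 0.030 with a 95% interval from -0.092 to 0.15. Mitf, the relative of both that acts in osteoclasts and pigment cells, had 8.85, 8.84 and 8.87 against 8.91, 8.81 and 8.87, a difference of 0.010. RNA levels do not show where these proteins lie in the cell. None of 22 regulators and paralogs of these factors passed, with a median of -0.030. Rragd, a GTPase that brings TFEB to the lysosome, had the smallest p, with 5.56, 5.66 and 5.43 against 5.17, 5.11 and 5.21. Its difference was -0.39 (adjusted p = 0.0815, limma), and like that of Tfeb its probe set was dim, near the array medians.

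Over all 153 measured genes of these pathway lists outside the members 2 fell, Atp6v0d2 and Clcn7, and none rose. Of all genes 0.316% passed lower and 0.275% higher. The median of the 153 was -0.014. With the variance trended on intensity 19 passed lower and 7 higher (limma), against 2.14% and 2.40% of all genes. None of 26 autophagy genes and known targets of TFEB passed, with 20 below 0, against 52.1% of all genes, and a median of -0.037. The smallest p there belonged to Bnip3, a mitophagy receptor, at -0.52 (adjusted p = 0.0866, limma). None of 16 genes that sort enzymes to lysosomes passed, with a median of -0.0069. The adaptor Gga2 had the smallest p, at -0.25 (adjusted p = 0.152, limma). It had 2 probe sets, and with both averaged the difference was -0.11 (adjusted p = 0.420, limma).

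**Figure D4:**
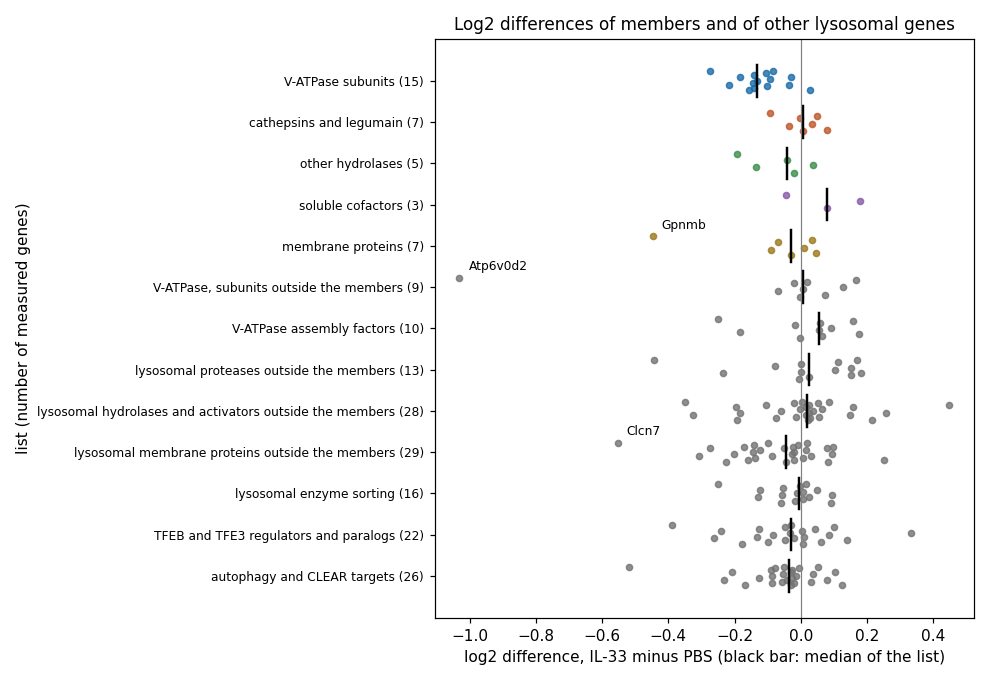
Log2 difference (IL-33 minus PBS, horizontal axis) of each gene in the members' classes other than transcription factors (coloured) and in the lists of other lysosomal genes (grey), with the number of measured genes beside each list; black bars are medians and names mark genes with an adjusted p under 0.05. The V-ATPase members have the lowest median, -0.13, and the named genes are Gpnmb, Atp6v0d2 and Clcn7.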

How the data were processed

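Biotin-labelled cDNA made from the total RNA of 6 samples was measured on arrays, 1 per sample, per the labels' protocols. The authors deposited 1 log2 value per probe set and array, and RMA is named in the submitters' processing notes, its version and options not given in the sources used here. This method corrects background, makes array distributions equal by quantiles and summarises probes, so a shift shared by most genes is not seen, and small differences of bright genes can be compressed. Of 41345 probe sets, 23521 carried exactly 1 gene symbol in the platform annotation.

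The deposited values were fitted by lmFit and eBayes of limma 3.58.1 (R 4.3.3), with group as the single term and no filter on dim genes. The fit was tested on simulated data. Figures used matplotlib 3.10.9 in Python 3.11.15. Values of all arrays were given for members that passed, that had non-overlapping groups and an unadjusted p under 0.05 (up to 12), that were highest or lowest of their class, or that were on a list fixed with the members (Tfeb, Tfe3, Mcoln1, Tcirg1, Atp6v0a1, Atp6v0d1, Ctsb, Ctsd, Ctsl, Ctss, Lamp1 and Gpnmb). Of each other list, genes that passed or the one with the smallest p were named. The genes Atp6v0d2, Clcn7, Mitf, Ctsk and Acp5 were named whatever their values. The members and lists were chosen with earlier results of these data known. Replicate numbers 1 to 3 occur in both groups, and nothing states that they mark a shared culture. Promoter letters came from RefSeq windows of GRCm38.p6.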

Additional observations from a re-analysis of the deposited data

How the results depend on the processing

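The 3 arrays of a group limit the precision: the median standard error of a member's log2 difference was 0.049, and the smallest difference of any gene that passed was 0.33 in size. The number of passing genes over the whole array, 131 as reported, was 296 without the dimmest genes (below the 25th percentile of gene means), 760 without those below the median, 1006 with a trended variance, 1000 with a trended and robust variance, 21 with the replicate block, 17 over all probe sets, and 15 to 83 when 1 array was left out. In the same order of settings, the members that were lower and passed, 1 as reported, numbered 1, 5, 9, 9, 0, 0 and 0, and those that were higher, 0 as reported, numbered 0, 1, 1, 1, 0, 0 and 0. For the pathway genes outside the members, 2 lower and 0 higher as reported, the lower ones numbered 4, 15, 19, 19, 1, 0 and 0 to 1, and the higher ones 1, 4, 7, 7, 0, 0 and 0. The replicate numbers were not taken as pairs, since nothing states that they mark a shared culture. Deviations of same-numbered arrays correlated at 0.082, 0.088 and 0.022, and those of different-numbered arrays between -0.125 and 0.059. Such small values do not settle whether the arrays were paired. With the replicate block Gpnmb had an adjusted p of 0.124 (limma). Members higher without overlap, 5 as reported, numbered 2 after quantile normalization, 3 after centring on the 75th percentile and 5 to 9 without 1 array. Members lower without overlap, 19 as reported, numbered 15 after quantile normalization and 16 after centring. For the V-ATPase subunits among them, 11 as reported, these counts were 9 and 10. The V-ATPase median ran from -0.14 to -0.085 without 1 array, the cathepsin median was 0.020 after quantile normalization, and the membrane protein median was -0.054 with all probe sets averaged. Signs turned for members near 0, none of which passed. Ctsb had 0.0095 after quantile normalization, 0.0016 after centring and -0.010 to 0.0054 without 1 array. Tfeb had 0.028, 0.0039 and -0.045 to 0.049 in these settings, and 0.014 with array weights. Npc1 had -0.054 with its probe sets averaged, and without 1 array Lamp1 ran from -0.0055 to 0.036 and Mitf from -0.012 to 0.034. The other named genes, of 32 in all, kept their sign under every alternative run. The cause was not tested.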

Other observations

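Of the 153 lysosomal genes outside the members, 23 were higher and 37 lower without overlap, against 10.3% and 10.1% of all genes. Both together make 39.2%, against 20.3% of all genes and 42.5% of the 1378 bright genes described above. Many of the 153 lie below the limit of that bright set. Examples from both sides follow, chosen after their values were seen, and none of them passed. Hgsnat, an acetyltransferase of heparan sulfate breakdown in the lysosomal membrane, had log2 values of 8.97, 9.13 and 9.19 in the PBS arrays and 9.49, 9.47 and 9.67 in the IL-33 arrays, a difference of 0.45 (adjusted p = 0.0795, limma). Ids, the sulfatase that acts on the same polymer, had a difference of 0.26 (adjusted p = 0.168, limma). Naaa, an amidase of fatty acid ethanolamides, had 0.22, and Scarb2, the receptor that carries glucocerebrosidase to lysosomes, had 0.25, with adjusted p of 0.115 and 0.164 (limma). On the lower side, Ggh, the hydrolase that trims polyglutamates from folate, had a difference of -0.35 and the calcium channel Mcoln2 -0.31. The metal transporter Slc11a1 had -0.27 and the dipeptidyl peptidase Dpp7 -0.23. Adjusted p for these lower genes lay between 0.0914 and 0.148 (limma).

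As given above, the 22 regulators and paralogs of TFEB and TFE3 did not pass. Without overlap, 7 of them were lower and 5 higher, against 10.1% and 10.3% of all genes. Of the 1378 bright genes, a set brighter than many of these, 21.3% were lower and 21.1% higher without overlap. The lower ones included the folliculin complex, which with Rag GTPases controls TFEB at the lysosome: Flcn had a difference of -0.26, Fnip1 of -0.18 and Fnip2 of -0.24, with adjusted p between 0.116 and 0.236 (limma). The Rag GTPases did not share a direction. The dim Rragd had -0.39, Rragc -0.047 and Rraga -0.020, the last with overlapping groups, while Rragb had 0.33 without overlap (adjusted p = 0.290, limma). The kinase Mtor at 0.10 and Lamtor2 at 0.042 were also higher without overlap. Of the other Lamtor genes, Lamtor3 at -0.048 and Lamtor4 at -0.084 were lower without overlap. The groups overlapped in Lamtor1 at -0.13 and Lamtor5 at 0.0056.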
